A study of Homo sapiens with 24 samples.

Results

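The genes described here make, inactivate or sense prostaglandins, and there are 9 of them among the 57736 genes of the count table. They were taken by name, with Ensembl identifiers matched to GENCODE symbols, and are the cyclooxygenases PTGS1 and PTGS2, the prostaglandin E synthases PTGES, PTGES2 and PTGES3, the prostacyclin synthase PTGIS, the degrading enzyme HPGD and the receptors PTGER2 and PTGER4. The set was chosen by the level of PTGES, whose rise in control knockout cells was known from these data, and the other members belong to the same pathway. The differences of the members between knockout and WT control cells are therefore given as a description, without p-values. Counts of members past the threshold there stand beside the share of all genes and support nothing.

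Prostaglandins are short-range lipid signals. Phospholipases free arachidonic acid from membranes, a cyclooxygenase turns it into prostaglandin H2, and terminal synthases convert that into prostaglandin E2, prostacyclin or other prostanoids. Prostaglandin E2 acts through receptors of the EP family, of which EP2 (PTGER2) and EP4 (PTGER4) raise cyclic AMP, and it is inactivated inside cells by 15-hydroxyprostaglandin dehydrogenase (HPGD). In tumours of the brain and elsewhere, inducible PTGS2 and PTGES are known as the pair that drives prostaglandin E2 output during inflammation.

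RNA was measured in U87-T cells, a human glioblastoma line (U87) that carries a TERT transgene. WT cells had received an empty Cas9 vector, and the DAXX_KO and ATRX_KO cells were each 1 single-cell CRISPR/Cas9 clone that had survived with ALT-like telomeres, so the knockout and the clone cannot be told apart. DAXX and ATRX form a complex that deposits a histone variant in silent chromatin. Each knockout had its own WT libraries and each of the 8 groups (WT or KO, control or etoposide, in a DAXX series and an ATRX series) had 3 libraries, 24 in all. The paper names a single U87-T control line, so the WT sets of both series are not counted as separate cell types. Etoposide is a topoisomerase II poison that breaks DNA; the labels give neither its dose nor the time for these libraries. They call the control cells untreated, whereas other assays of the study used DMSO. The labels do not say that the 3 libraries of a group came from separate cultures, so p-values measure the spread between these libraries, which may be technical.

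Libraries held 6928950 to 13298557 counts, and levels are given as CPM, the count of a gene scaled to a common library total after correction for library composition by TMM. DAXX mRNA was 34.5 ± 1.27 CPM in WT control and 5.93 ± 1.08 CPM in DAXX_KO control cells, and ATRX mRNA 190 ± 5.08 and 79.4 ± 5.74 CPM in the ATRX series (mean ± SD, n = 3 here and throughout), so both knockouts went with their titles. In the deposited labels the genotype field of libraries titled DAXX KO reads ATRX KO instead; their titles were used. Glioblastoma-type genes were present (VIM 1203 to 6092 CPM, CD44 344 to 1043 CPM over the 24 libraries), except that CHI3L1 was low, at 0.245 to 7.81 CPM. Of the immune, endothelial and epithelial markers, CD3E reached 0.359 CPM at most, CDH5 0.272, KRT5 0.150, LYZ 1.90, EPCAM 2.65 and TEK 3.55 CPM, whereas CD68, which is not confined to immune cells, was at 17.5 to 40.7 CPM.

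The 2 members that moved most were PTGS2 and PTGES, and the 300 bases around their start sites are shown because the promoters differ in the letters they hold. The RefSeq windows run from 250 bases before the start to 50 from it on, read 5′ to 3′ on the gene's strand, and match GRCh37 exactly at chr1:186649506-186649805 (PTGS2, minus strand) and chr9:132515272-132515571 (PTGES, minus strand). Capitals mark the TATA box (TATAAA) and the core of the cAMP response element (TGACG, seen here as its complement CGTCA) in PTGS2, and GC boxes (GGGCGG) in PTGES.
PTGS2: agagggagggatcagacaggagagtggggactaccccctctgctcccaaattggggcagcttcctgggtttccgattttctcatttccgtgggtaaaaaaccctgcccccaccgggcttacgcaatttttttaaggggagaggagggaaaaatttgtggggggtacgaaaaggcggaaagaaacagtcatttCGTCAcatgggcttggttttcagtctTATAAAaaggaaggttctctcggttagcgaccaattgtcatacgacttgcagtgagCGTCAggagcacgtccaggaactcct
PTGES: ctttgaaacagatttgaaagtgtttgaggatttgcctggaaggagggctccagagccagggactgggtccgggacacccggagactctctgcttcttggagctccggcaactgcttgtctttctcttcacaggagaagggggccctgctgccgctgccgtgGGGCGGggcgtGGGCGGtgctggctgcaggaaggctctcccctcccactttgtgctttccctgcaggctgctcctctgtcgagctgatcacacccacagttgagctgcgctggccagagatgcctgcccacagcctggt
In PTGS2 the TATA box began 32 bases upstream of the start, and the cAMP response element core lay 58 bases upstream and again 24 bases downstream. A C/EBP core (TTGCG), left in lower case, lay 130 bases upstream. PTGES held 2 GC boxes, 89 and 78 bases upstream, and none of the other motifs in the forms searched. Each motif was searched on both strands. Of 35116 RefSeq promoter windows of this length, 11.5% held TATAAA, 24.6% TGACG, 19.8% TTGCG and 45.0% GGGCGG. Neither window matched the pattern searched for an NF-kappaB site (GGGRNNYYCC, where R is A or G, Y is C or T and N any letter). Nor did either match the EGR form GCGGGGGCG, an E-box (CACGTG) or a p53 response element decamer. This says only that these letters are not there, and other forms of the sites were not searched. PTGS2 holds gggactaccc and PTGES gcgtgggcg, which differ by a single letter from the NF-kappaB and EGR forms searched. Neither promoter can therefore be said to lack such a site, and binding was not tested.

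Levels across the 8 groups placed the members in 3 tiers. PTGES3, a cochaperone also called p23 that has prostaglandin E synthase activity, was the most abundant at 162 to 451 CPM (group means), and PTGES2, a membrane-associated synthase, followed at 26.5 to 53.1 CPM. PTGS2 and PTGES spanned the widest ranges, from 0.973 to 187 CPM and from 0.662 to 107 CPM. The receptors lay between 1.81 and 11.4 CPM, HPGD and PTGS1 below 3 CPM, and PTGIS never exceeded 10 counts in a library. CPM from 3′ tag libraries is not divided by gene length.

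**Figure D1:**
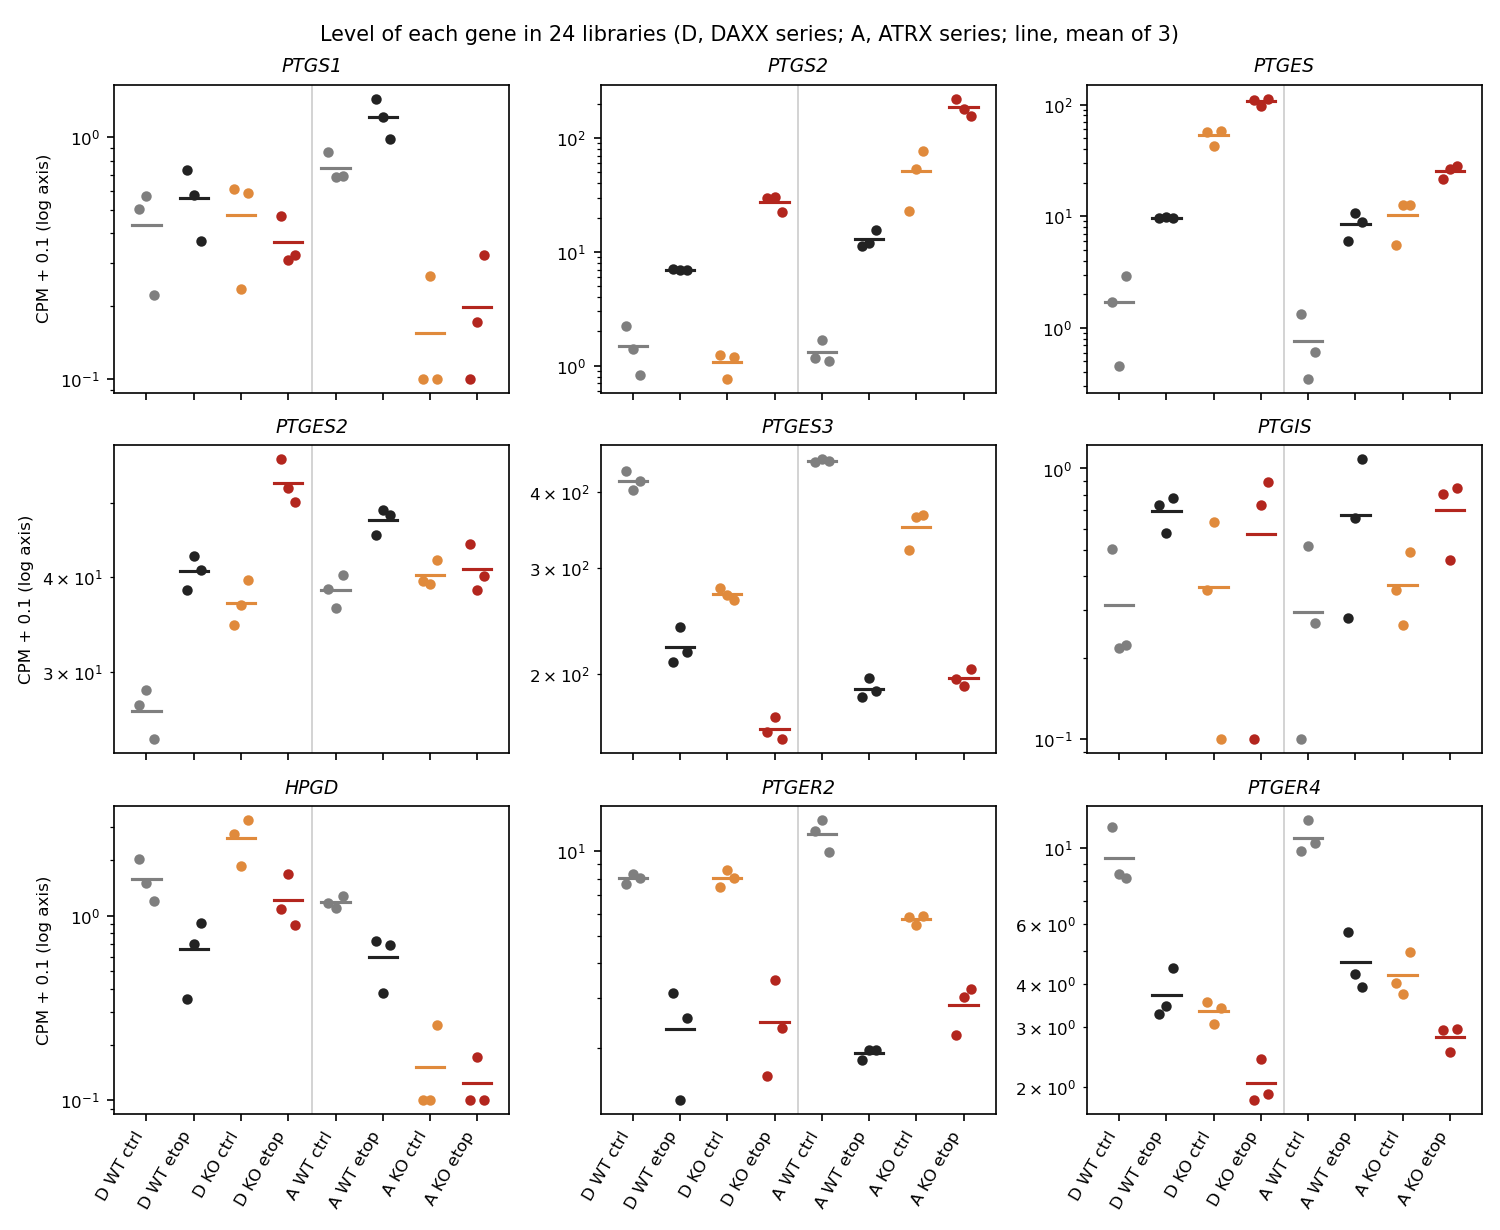
CPM plus 0.1 (log axis, scaled per panel) of the 9 genes in each of 24 libraries, with the group mean as a line; D is the DAXX series, A the ATRX series, ctrl control and etop etoposide. PTGES is above WT in both knockouts, PTGS2 in control cells is at 50.9 CPM in ATRX_KO and 0.973 CPM in DAXX_KO (means), and HPGD and PTGS1 are near 0 in both ATRX_KO groups.

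Among control cells, 4 members differed between DAXX_KO and WT at a 5% false discovery rate (FDR), of 7 that passed the filter on low counts, and 7 of 8 did so in the ATRX series. Of all genes tested, 53.4% were called in DAXX_KO (26.7% higher, 26.6% lower) and 41.8% in ATRX_KO (20.8% higher, 21% lower), and the libraries of both groups did not overlap for 60% and 50.9%. Since these contrasts include the one behind the choice of PTGES, nothing is read from the counts. PTGES was higher in both knockouts and PTGER4 and PTGES3 lower in both. PTGES2 was higher in DAXX_KO, and in ATRX_KO PTGS2 was higher and PTGER2, HPGD and PTGS1 were lower. The log2 fold change of PTGES2 in DAXX_KO was 0.47, and the 60 tested genes nearest to it had a median of 0.33.

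PTGS2, the inducible cyclooxygenase, was scarce in WT control cells. The DAXX series WT control libraries held 2.12, 1.29 and 0.734 CPM, and the DAXX_KO control libraries 1.15, 0.671 and 1.10 CPM, so the groups overlapped. In the ATRX series the WT control libraries held 1.08, 1.59 and 1.01 CPM, against 22.6, 53.3 and 76.7 CPM in ATRX_KO. All 3 ATRX_KO libraries stood well above WT, and they also spread over more than 3-fold among themselves. The log2 fold change was −0.53 (SE 0.39) in DAXX_KO and 5.38 (SE 0.43) in ATRX_KO, and the DAXX_KO effect minus the ATRX_KO effect was −5.91 (SE 0.97). In bulk RNA, fewer cells expressing a gene and less RNA per cell cannot be told apart.

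Etoposide raised PTGS2 in both WT sets and both knockouts. In WT cells it came to 6.97, 6.83 and 6.79 CPM in the DAXX series (log2 fold change 2.28, SE 0.27, edgeR adjusted p = 5.19e-07) and to 11.1, 12 and 15.6 CPM in the ATRX series (3.41, SE 0.50, edgeR adjusted p = 1.53e-05). In DAXX_KO cells, whose control level was like that of WT, etoposide gave 29.6, 30.4 and 22.2 CPM (4.79, SE 0.25, edgeR adjusted p = 7.25e-12). In ATRX_KO it gave 223, 181 and 156 CPM (1.86, SE 0.26, edgeR adjusted p = 1.81e-05). None of the etoposide groups overlapped with its own control group.

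The log2 response of PTGS2 in DAXX_KO exceeded that in WT by 2.52 (SE 0.44, edgeR adjusted p = 0.000625). With all 24 libraries in 1 model the difference was 2.53 with an edgeR adjusted p of 0.0569, outside the threshold. In ATRX_KO the response was smaller than in WT by −1.54 (SE 0.61), a difference that did not pass (edgeR adjusted p = 0.0969). It passed without ATRX_KO control replicate 1, the lowest of its group (−1.90, edgeR adjusted p = 0.00211), with all libraries in 1 model (−1.51, edgeR adjusted p = 0.0437) and without a filter on low counts (−1.54, edgeR adjusted p = 1.04e-09). With etoposide, PTGS2 stood above WT in both knockouts, by 1.99 (SE 0.18, edgeR adjusted p = 3.38e-08) in DAXX_KO and 3.83 (SE 0.31, edgeR adjusted p = 3.2e-08) in ATRX_KO. The DAXX_KO effect was smaller than the ATRX_KO effect by 1.86 (log2 difference −1.86, SE 0.43, edgeR adjusted p = 0.0013).

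PACERR, a noncoding RNA transcribed from the opposite strand across the start of PTGS2, held at most 3 counts in each library outside ATRX_KO. In ATRX_KO it held 6, 7 and 6 counts in control cells and 3, 9 and 13 with etoposide. Over all libraries it came to 60 counts against 10434 for PTGS2, and the strand setting of the counting is not given in the sources used here.

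PTGS1, the constitutive cyclooxygenase, was near the limit of detection. In WT cells of the ATRX series it held 10, 7 and 7 counts in control and 15, 12 and 9 counts with etoposide. In ATRX_KO cells it held 0, 2 and 0 counts in control and 0, 1 and 3 with etoposide. The groups did not overlap, and the ATRX_KO groups were at or under a floor of 3 counts per library. Against that floor PTGS1 was at least 2.63-fold lower in control and at least 4.75-fold lower with etoposide (edgeR adjusted p = 0.00117 for the latter). In the DAXX series PTGS1 held 1 to 5 counts per library and was not tested.

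PTGES, the inducible microsomal prostaglandin E synthase that works with PTGS2 (ENSG00000148344, chr9:132500610-132515321, GRCh37, minus strand), was high in both knockouts. In the DAXX series the WT control libraries held 1.62, 0.352 and 2.81 CPM and the DAXX_KO control libraries 57.3, 42.9 and 58.4 CPM. In the ATRX series the corresponding values were 1.23, 0.251 and 0.505 CPM and 5.38, 12.6 and 12.6 CPM. Knockout and WT did not overlap in either series, and the DAXX_KO control libraries also stood above all ATRX_KO libraries, including those with etoposide.

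The log2 fold change of PTGES in control cells was 5.05 (SE 0.24) in DAXX_KO and 3.90 (SE 0.42) in ATRX_KO. WT control levels rested on 3 to 23 counts per library, and leaving out 1 of them moved the values: to 5.66 without replicate 3 in the DAXX series and to 4.73 without replicate 1 in the ATRX series. The DAXX_KO minus ATRX_KO difference in control cells, 1.16 (SE 0.72), came to 0.32 without WT control replicate 1 of the ATRX series and to 1.75 without WT control replicate 3 of the DAXX series.

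The 60 tested genes nearest to PTGES on chromosome 9, 30 on each side, centred on 0.26 (median log2 fold change) in control cells of DAXX_KO, and PTGES minus that median was 4.79. PTGES2 and PTGS1 lie on the same chromosome, at chr9:130882972-130890741 and chr9:125132809-125157982.

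**Figure D2:**
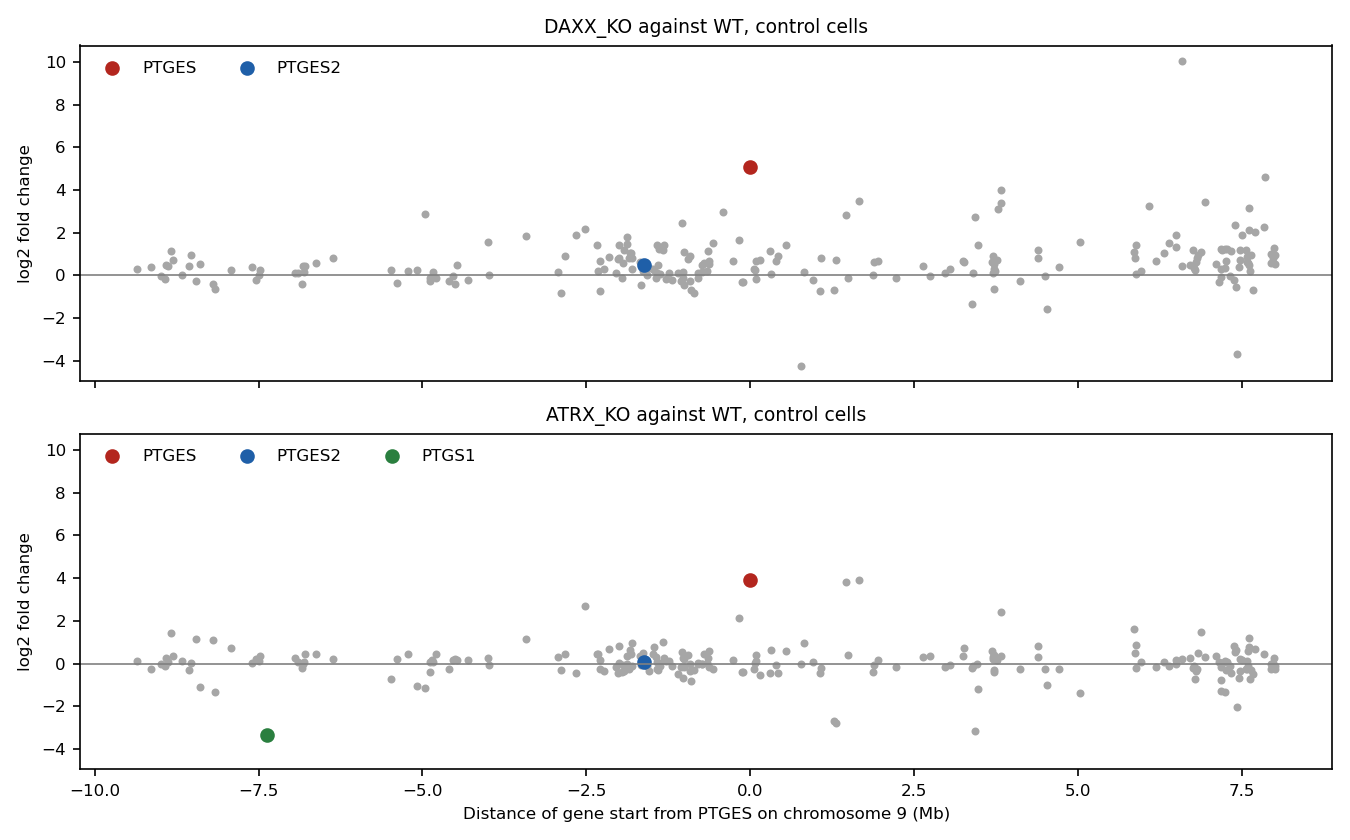
Log2 fold change, knockout against WT in control cells, of the genes tested on chromosome 9 by their distance in Mb from PTGES. In DAXX_KO the 60 nearest neighbours of PTGES have a median of 0.26 while PTGES is at 5.05; in ATRX_KO PTGES is at 3.90, and the fitted PTGS1 value rests on knockout libraries at or under 3 counts.

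Etoposide raised PTGES in both WT sets and both knockouts too. These contrasts share the control libraries behind the choice of PTGES, so its values are a description, given without a test. WT libraries of the DAXX series came to 9.5, 9.71 and 9.51 CPM (log2 fold change 2.60, SE 0.31). Those of the ATRX series came to 5.93, 10.6 and 8.73 CPM (3.64, SE 0.43). Without WT control replicate 3 of the DAXX series the first value was 3.21, and without WT control replicate 1 of the ATRX series the second was 4.46. In the knockouts PTGES rose to 111, 96.8 and 113 CPM in DAXX_KO (1.02, SE 0.14) and to 21.3, 26.4 and 27.8 CPM in ATRX_KO (1.29, SE 0.27). Each etoposide group lay above its control group.

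The fold response was smaller in the knockouts, by −1.58 (SE 0.35) in DAXX_KO and −2.35 (SE 0.54) in ATRX_KO. Both values contain the control contrast that chose PTGES and are given without a test; without the same 2 WT control libraries they were −2.19 and −3.17. With etoposide, in libraries that played no part in the choice, PTGES remained higher than in WT by 3.47 (SE 0.17, edgeR adjusted p = 5.39e-12) in DAXX_KO and by 1.56 (SE 0.28, edgeR adjusted p = 0.000216) in ATRX_KO. The DAXX_KO effect was the larger by 1.90 (SE 0.35, edgeR adjusted p = 0.000139). Ordered by mean, the groups ran from WT control through WT with etoposide to ATRX_KO and then DAXX_KO, and WT with etoposide (8.42 ± 2.35 and 9.57 ± 0.117 CPM) overlapped with ATRX_KO control (10.2 ± 4.17 CPM).

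**Figure D3:**
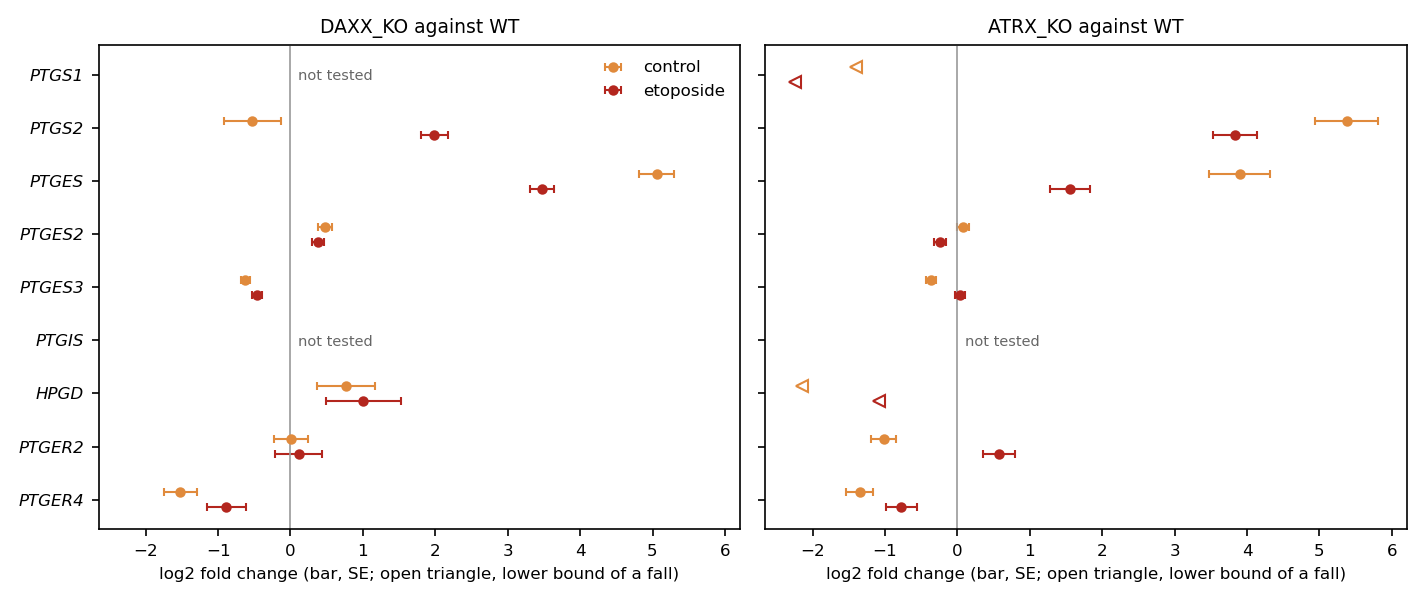
Log2 fold change, knockout against WT, of each gene in control cells (orange) and with etoposide (red); bars are SE, an open triangle is the bound for a gene whose knockout libraries were all at or under 3 counts, and PTGIS and PTGS1 in the DAXX series were not tested. PTGES is to the right in all 4 contrasts, from 1.56 to 5.05, and PTGER4 to the left in all 4, while PTGS2 in DAXX_KO goes from −0.53 in control to 1.99 with etoposide.

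PTGS2 and PTGES combined differently in the clones. DAXX_KO control cells had PTGES at 52.9 ± 8.61 CPM with PTGS2 at 0.973 ± 0.262 CPM, and ATRX_KO control cells had PTGES at 10.2 ± 4.17 CPM with PTGS2 at 50.9 ± 27.1 CPM. Within ATRX_KO control cells replicate 1 was lowest for both genes. Across the 12 libraries of the ATRX series the log2 levels had a Pearson r of 0.94, and across the 12 of the DAXX series 0.49. Such libraries share their group effects, so these are descriptions.

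**Figure D4:**
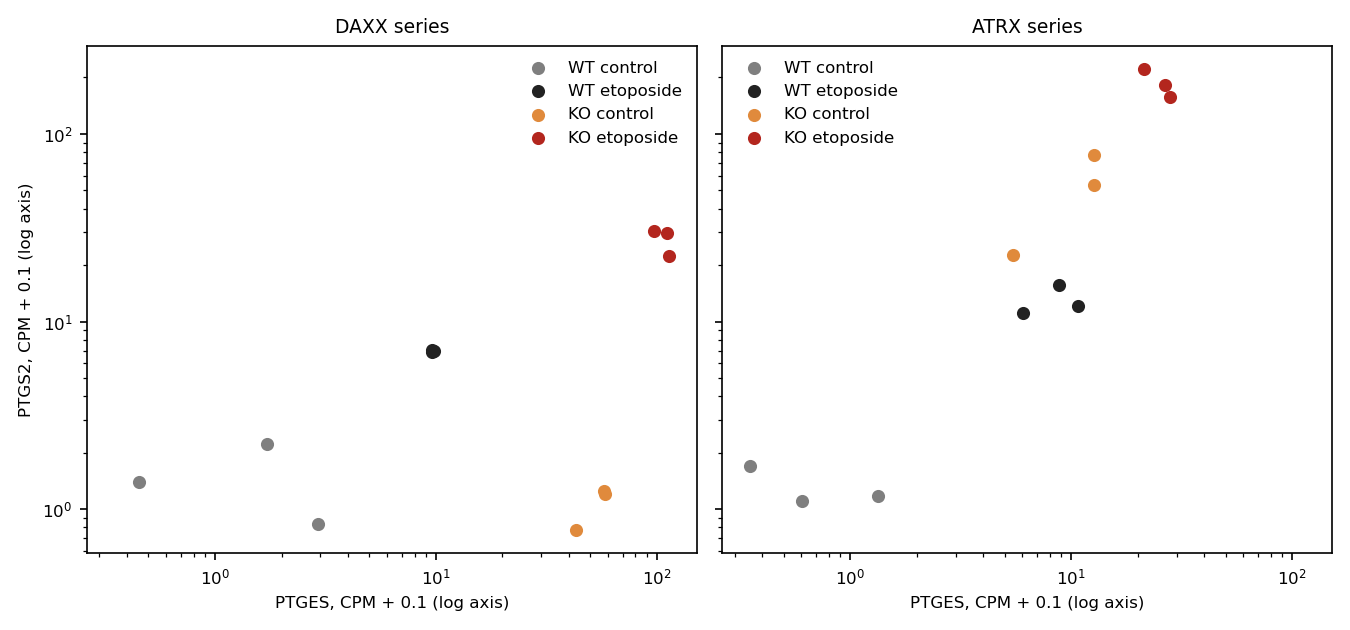
PTGS2 against PTGES, CPM plus 0.1 on log axes, in the 12 libraries of each series, coloured by group. DAXX_KO control libraries sit at the lower right, with PTGES at 42.9 to 58.4 CPM and PTGS2 at 0.671 to 1.15 CPM, while the ATRX series runs from lower left to upper right.

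The other prostaglandin E synthases moved less. PTGES2 in DAXX series WT cells held 27.1, 28.3 and 24.3 CPM in control and 38.4, 42.5 and 40.7 CPM with etoposide (log2 fold change 0.63, SE 0.09, edgeR adjusted p = 9.29e-06), and DAXX_KO cells went from 34.5, 36.6 and 39.5 to 57.0, 52.2 and 50.1 CPM (0.53, SE 0.09, edgeR adjusted p = 4.27e-05). These groups were apart. The 60 tested genes nearest to PTGES2 had median etoposide responses of 0.25 in DAXX series WT and 0.26 in DAXX_KO. In WT cells of the ATRX series it rose by 0.33 (SE 0.08, edgeR adjusted p = 0.00223), and in ATRX_KO cells it went from 39.4, 39.0 and 42.0 to 44.1, 38.4 and 40.0 CPM, which overlapped (0.01, SE 0.08, edgeR adjusted p = 0.907).

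Against WT with etoposide, PTGES2 was higher in DAXX_KO by 0.38 (SE 0.09, edgeR adjusted p = 0.00119) and lower in ATRX_KO by −0.24 (SE 0.08, edgeR adjusted p = 0.0217). The median over the 60 nearest tested genes was 0.44 in the first contrast, and PTGES2 minus that median was −0.06. The second did not pass with library totals alone (−0.15, edgeR adjusted p = 0.153), without a filter on low counts (adjusted p = 0.0919) or without WT etoposide replicate 2 or 3 or ATRX_KO etoposide replicate 2 or 3 (0.0660 to 0.116). The difference between the knockout effects was 0.61 (SE 0.11, edgeR adjusted p = 0.000166), or 0.28 after subtracting neighbours.

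PTGES3 fell with etoposide in both WT sets and both knockouts, and its levels were tight. WT libraries of the DAXX series went from 433, 403 and 417 CPM to 209, 239 and 218 CPM (log2 fold change −0.89, SE 0.06, edgeR adjusted p = 3.31e-10), and those of the ATRX series from 449, 453 and 450 CPM to 184, 197 and 188 CPM (−1.23, SE 0.07, edgeR adjusted p = 1.4e-10). DAXX_KO fell by 0.73 (edgeR adjusted p = 1.14e-08) and ATRX_KO by 0.84 (edgeR adjusted p = 3.33e-08). The fall was smaller in ATRX_KO than in WT by 0.39 (SE 0.10, edgeR adjusted p = 0.0119), and in DAXX_KO the difference of 0.16 (SE 0.09) did not pass (edgeR adjusted p = 0.271).

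In control cells PTGES3 was lower by −0.62 (SE 0.06) in DAXX_KO and −0.36 (SE 0.07) in ATRX_KO. With etoposide it was lower in DAXX_KO by −0.46 (SE 0.06, edgeR adjusted p = 6.05e-06), while in ATRX_KO the difference was 0.03 (SE 0.07, edgeR adjusted p = 0.739). Its 5 processed pseudogenes in the table held 25 counts in all, against 70175 for PTGES3. PTGIS, which makes prostacyclin, held 0 to 10 counts per library and was tested in neither series, and a difference was not detectable at this depth.

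HPGD, which oxidizes prostaglandin E2 to an inactive form, was low in WT and DAXX_KO cells and nearly undetected in ATRX_KO. ATRX series WT libraries held 14, 12 and 14 counts in control and 7, 3 and 6 with etoposide. ATRX_KO libraries held 0, 0 and 2 counts and 0, 1 and 0 counts. The groups did not overlap, and against the floor of 3 counts per library HPGD was at least 4.40-fold lower in ATRX_KO control cells and at least 2.12-fold lower with etoposide (edgeR adjusted p = 0.00437 for the latter).

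DAXX_KO went the other way in sign. HPGD held 19, 12 and 9 counts in WT control and 21, 13 and 26 in DAXX_KO control libraries, which overlapped (log2 fold change 0.77, SE 0.39). With etoposide it held 2, 5 and 6 counts in WT and 8, 15 and 7 in DAXX_KO, levels of 0.253, 0.599 and 0.815 CPM against 0.987, 1.58 and 0.79 CPM, which overlapped, and the difference did not pass (1.00, SE 0.52, edgeR adjusted p = 0.111). Its 60 neighbours on chromosome 4 had medians of 0.45 and 0.60 in these contrasts. Etoposide lowered HPGD by −1.39 (SE 0.50, edgeR adjusted p = 0.0209) in DAXX series WT cells and by −1.16 (SE 0.41, edgeR adjusted p = 0.0224) in DAXX_KO cells. Neither call was firm: the first was lost without replicate 1 of WT control (edgeR adjusted p = 0.101) or of WT etoposide (0.101), and the second without control replicate 1 or 3 or etoposide replicate 1 or 3 (0.0639 to 0.105) and with DESeq2 (0.0545). In WT cells of the ATRX series the value was −1.08 (SE 0.56, edgeR adjusted p = 0.103), which passed with only the groups compared (edgeR adjusted p = 0.0486).

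The receptor genes fell with etoposide. PTGER2, which encodes EP2, went from 7.57, 8.21 and 7.95 CPM to 3.04, 1.2 and 2.44 CPM in DAXX series WT cells (log2 fold change −1.82, SE 0.28, edgeR adjusted p = 1.58e-05). DAXX_KO cells went from 7.38, 8.45 and 7.95 to 1.48, 3.37 and 2.26 CPM (−1.71, SE 0.28, edgeR adjusted p = 2.88e-05). The responses differed by 0.11 (SE 0.40, 95% interval −0.69 to 0.90, edgeR adjusted p = 0.910), and the WT and DAXX_KO levels overlapped in both treatments.

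In the ATRX series PTGER2 went from 11.7, 12.8 and 9.85 to 1.71, 1.86 and 1.86 CPM in WT cells (−2.63, SE 0.20, edgeR adjusted p = 6.7e-09), and from 5.72, 5.38 and 5.80 to 2.12, 2.94 and 3.14 CPM in ATRX_KO cells (−1.04, SE 0.19, edgeR adjusted p = 0.00027). ATRX_KO started below WT, by −1.02 (SE 0.17), and ended above it in all 3 libraries. The fall was smaller in ATRX_KO by 1.59 (SE 0.28, edgeR adjusted p = 0.00137). The difference with etoposide, 0.58 (SE 0.23), passed only narrowly (edgeR adjusted p = 0.0474) and was lost with DESeq2 (0.0924), without a filter on low counts (0.144), with all libraries in 1 model (0.0647), with only the groups compared (0.124), with replicate number as a block (0.0670) and without any of 10 of the 12 libraries (0.0537 to 0.156).

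PTGER4, which encodes EP4, fell in both comparisons of the design. Its WT control libraries held 11.4, 8.32 and 8.07 CPM (DAXX series) and 9.68, 12 and 10.3 CPM (ATRX series). The knockout control libraries held 3.44, 2.95 and 3.30 CPM in DAXX_KO and 3.93, 3.64 and 4.86 CPM in ATRX_KO. The groups were apart, with log2 fold changes of −1.52 (SE 0.22) and −1.35 (SE 0.19), and the knockouts differed from each other by −0.17 (SE 0.28).

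Etoposide brought PTGER4 in WT cells to 3.17, 3.36 and 4.35 CPM in the DAXX series (−1.35, SE 0.22, edgeR adjusted p = 2.99e-05) and to 5.58, 4.18 and 3.82 CPM in the ATRX series (−1.20, SE 0.19, edgeR adjusted p = 3.25e-05). It fell to 1.73, 2.32 and 1.81 CPM in DAXX_KO (−0.71, SE 0.27, edgeR adjusted p = 0.0321) and to 2.83, 2.44 and 2.84 CPM in ATRX_KO (−0.63, SE 0.21, edgeR adjusted p = 0.0202). The fall in DAXX_KO was lost with DESeq2 (0.0870), without a filter on low counts (0.0747), with only the groups compared (0.0674) and without control replicate 1 or 3 or etoposide replicate 1 or 3 (0.0683 to 0.0868). That in ATRX_KO was lost without control replicate 3 (0.0913) or etoposide replicate 2 (0.0699). With etoposide PTGER4 was lower than in WT by −0.88 (SE 0.27, edgeR adjusted p = 0.00877) in DAXX_KO and by −0.78 (SE 0.21, edgeR adjusted p = 0.00641) in ATRX_KO, the latter lost without WT etoposide replicate 1 (−0.57, edgeR adjusted p = 0.0571). TTC33, which overlaps PTGER4 on the opposite strand, held 34 to 97 counts per library, with group means of 5.71 to 9.28 CPM, and the strand setting of the counting is not given in the sources used here.

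**Figure D5:**
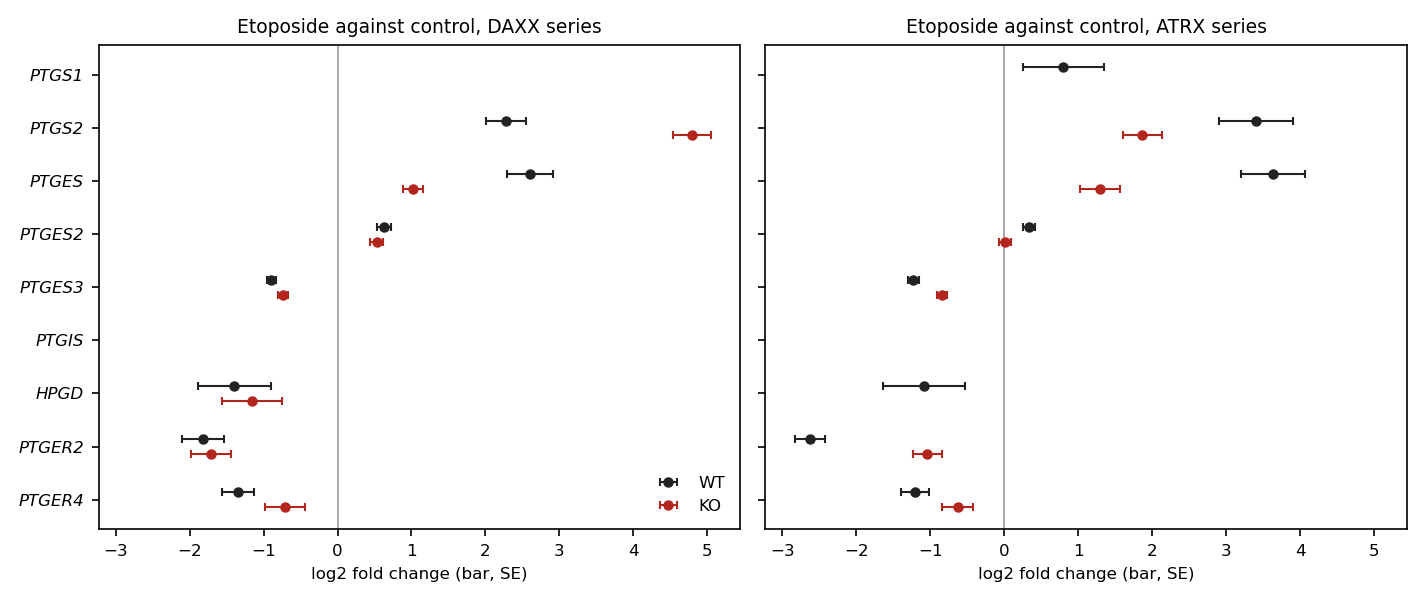
Log2 fold change, etoposide against control, of each gene in WT (black) and knockout cells (red) of both series; bars are SE, and genes that were not tested or were at or under 3 counts in both groups have no point. PTGS2 and PTGES lie to the right and PTGES3, PTGER2 and PTGER4 to the left in both WT sets and both knockouts, with the widest gap between WT and knockout at PTGS2 in the DAXX series (2.28 against 4.79).

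Counted together, etoposide called all 7 tested members in WT cells of the DAXX series (3 up, 4 down), where 60.2% of genes were called (29.6% up, 30.6% down; 66.7% did not overlap). In DAXX_KO it called all 7 (3 up, 4 down), against 54.5% of genes (26.8% up, 27.8% down; 58.2% did not overlap). In WT cells of the ATRX series 6 of 8 were called (3 up, 3 down), against 61.5% of genes (31.7% up, 29.8% down; 68.6% did not overlap). In ATRX_KO the count was 5 of 8 (2 up, 3 down), against 49.5% (24.3% up, 25.2% down, and 53.8% did not overlap). Each of these counts includes PTGES among the genes up, although its control libraries took part in its choice.

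With etoposide, 5 of 7 members differed between DAXX_KO and WT (3 higher, 2 lower), against 53% of genes (27.9% higher, 25.2% lower; 58.3% did not overlap). Between ATRX_KO and WT 7 of 8 differed (3 higher, 4 lower), against 45.9% (23% higher, 22.9% lower; 55.2% did not overlap). Leaving out PTGES, whose interaction contains the contrast behind its choice, the response itself differed for 1 of 6 members in DAXX_KO (PTGS2, higher), against 14.2% of genes (8.38% higher, 5.79% lower), and for 2 of 7 in ATRX_KO (PTGES3 and PTGER2, both higher), against 16% (8.36% higher, 7.64% lower). The knockout effect differed between DAXX_KO and ATRX_KO for 5 of 7 members in control cells (3 higher, 2 lower), against 34.1% of genes (17% and 17.2%), from which nothing is read, and for 5 of 7 with etoposide (3 higher, 2 lower), against 34.5% (17.7% and 16.8%).

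Of 77 other genes of the pathway, 52 (DAXX series) and 53 (ATRX series) were tested. Their lists were drawn up with earlier results of these data known, so the list counts are a description. Most genes named from them were picked for passing the threshold in both series, so their p-values say nothing about the lists. In control cells 23 were higher and 9 lower in DAXX_KO (medians 0.26 against 0.02 over all genes), and 18 were higher and 8 lower in ATRX_KO (0.30 against 0.02). Of all genes, 26.7% were higher and 26.6% lower in DAXX_KO, and 20.8% and 21% in ATRX_KO, which is the background for each list in control cells. Of the list drawn up for arachidonic acid release, 8 were higher and 1 lower of 10 in DAXX_KO, and 4 and 1 of 10 in ATRX_KO. Not all of its genes release the acid. ACSL4, which joins free arachidonic acid to coenzyme A, was among the higher in DAXX_KO (0.83). The lipase MGLL was the lower one there (−0.73). PLA2G4A, the cytosolic phospholipase A2 that frees arachidonic acid, held 0 to 3 counts per library in DAXX series WT control and 12 to 20 in DAXX_KO, at least 6.12-fold higher (edgeR adjusted p = 0.000109). ATRX series libraries held 1 to 4 counts in WT control and 58 to 77 in ATRX_KO (log2 fold change 4.65, SE 0.36, edgeR adjusted p = 2.06e-08). The other named genes of this list were DAGLA, a diacylglycerol lipase (1.30 in DAXX_KO and 0.77 in ATRX_KO), and the lysosomal phospholipase PLA2G15 (1.13 and 0.52).

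Among 6 tested synthases of other prostanoids, 2 were higher and 2 lower in DAXX_KO control cells and 2 and 3 in ATRX_KO. AKR1C3, which makes prostaglandin F forms, rose from 0.761 ± 0.425 to 19.2 ± 0.948 CPM in DAXX_KO (4.58, SE 0.25, edgeR adjusted p = 2.22e-11) and from 0.401 ± 0.190 to 3.84 ± 0.683 CPM in ATRX_KO (3.21, SE 0.34, edgeR adjusted p = 9.87e-07). The aldo-keto reductase AKR1B1 rose in both (2.04 and 0.94) and the carbonyl reductase CBR3 fell in both (−0.64 and −1.60). On the list of other receptors, both genes tested in the DAXX series were higher, the thromboxane receptor TBXA2R and PTGFRN. PTGFRN encodes a regulator of the prostaglandin F receptor and is not itself a prostanoid receptor. Of 3 tested in the other series 1 was higher and 1 lower. The higher one in ATRX_KO was the prostacyclin receptor PTGIR, named here after its values were seen, at 0.378 ± 0.183 CPM in WT and 4.58 ± 0.851 CPM in ATRX_KO, without a test. Clearance and transport genes gave 2 higher and 1 lower of 5 in DAXX_KO and 0 and 1 of 5 in ATRX_KO, with the prostaglandin exporter ABCC4 lower in both (−0.69 and −0.55). Lipoxygenase and leukotriene genes were higher for 2 of 6 in DAXX_KO and 1 of 6 in ATRX_KO, with none lower.

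Genes known to regulate PTGS2 and PTGES were higher for 6 and lower for 3 of 14 in DAXX_KO control cells, and higher for 10 with none lower of 14 in ATRX_KO, where 20.8% of all genes were higher. CEBPB, a transcription factor of inflammatory genes, rose by 0.74 (SE 0.09, edgeR adjusted p = 1.93e-06) and 2.19 (SE 0.12, edgeR adjusted p = 3.88e-10). RELB of the NF-kappaB family rose by 1.32 and 2.08 and CEBPD by 1.46 and 1.25. IL1B, the cytokine interleukin-1 beta, was chosen after its values were seen: it went from 5.45 ± 0.526 to 2.95 ± 0.869 CPM in DAXX_KO and from 3.84 ± 0.487 to 333 ± 122 CPM in ATRX_KO, values given without a test.

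Genes that respond to cyclic AMP downstream of EP2 and EP4 gave 1 higher and 2 lower of 9 in DAXX_KO and 0 and 2 of 9 in ATRX_KO, beside 26.7% and 26.6% of all genes in the former and 20.8% and 21% in the latter. The phosphodiesterase PDE4B fell by 1.04 (edgeR adjusted p = 0.000112) in DAXX_KO and by 0.73 (edgeR adjusted p = 0.00765) in ATRX_KO. With etoposide PDE4B was again lower than in WT (−1.29 and −1.09), while CREM was higher (1.43 and 0.39).

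In response to etoposide, 15 pathway genes rose and 18 fell of 52 in DAXX series WT cells, and 22 and 15 of 53 in those of the ATRX series. Over all genes 29.6% rose and 30.6% fell in the former and 31.7% and 29.8% in the latter. In the knockouts 13 rose and 20 fell of 52 in DAXX_KO and 17 rose and 12 fell of 53 in ATRX_KO, beside 26.8% and 27.8% of all genes in DAXX_KO and 24.3% and 25.2% in ATRX_KO. Of the clearance and transport genes 3 of 5 fell in both WT sets and both knockouts, namely the transporters SLCO3A1 and ABCC4 and the reductase PTGR3. On the same list 1 gene rose in each WT set and none in either knockout. SLCO3A1 fell by 2.44 and 1.91 in WT cells of the DAXX and ATRX series, and ABCC4 by 1.80 and 1.66. CBR3 fell by 1.67 and 1.92. ALOXE3, an epidermis-type lipoxygenase, rose from 0.539 ± 0.210 to 9.40 ± 1.74 CPM and from 0.678 ± 0.0829 to 40.8 ± 0.192 CPM in WT cells (4.13, SE 0.28, edgeR adjusted p = 1.23e-10, and 5.91, SE 0.17, edgeR adjusted p = 4.09e-14).

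Regulators moved in both directions, with 5 up and 4 down of 14 in DAXX series WT cells and 6 up and 3 down in those of the ATRX series. IL1RN, the interleukin-1 receptor antagonist, rose at least 5.30-fold in DAXX series WT cells, whose control libraries held 2 or 3 counts, and by 4.89 (SE 0.68, edgeR adjusted p = 8.88e-06) in WT cells of the ATRX series. In DAXX_KO it rose at least 23.1-fold, from at most 3 counts to 61 to 109. IL1A and RELB also rose in both WT sets and both knockouts. Of the cyclic AMP genes, the orphan nuclear receptor NR4A1 rose by 3.22 and 3.03 in WT cells. Of 9 tested, 3 rose and 2 fell in DAXX series WT, 5 and 1 in ATRX series WT, 4 and 1 in DAXX_KO, and 5 and 0 in ATRX_KO. Of all genes, 29.6%, 31.7%, 26.8% and 24.3% rose in the same order, and 30.6%, 29.8%, 27.8% and 25.2% fell. These shares are the background for the regulators too. The response differed from WT in the same direction in both knockouts for 2 pathway genes, the prostaglandin reductase PTGR1 (−0.38 in both) and NFKB1 (−0.55 and −0.52).

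With etoposide, 24 pathway genes were higher and 13 lower of 52 in DAXX_KO against WT, and 24 and 12 of 53 in ATRX_KO. Over all genes the shares were 27.9% and 25.2% in DAXX_KO and 23% and 22.9% in ATRX_KO. Of the arachidonic acid list 7 and 6 of 10 were higher and 2 and 2 lower, and of the regulators 7 and 11 of 14 were higher and 1 and 0 lower. PLA2G4A was higher by 1.74 (SE 0.53, edgeR adjusted p = 0.00965) in DAXX_KO and at least 19.4-fold in ATRX_KO (edgeR adjusted p = 2.47e-08). AKR1C3 stayed higher in both (3.78 and 1.94), as did CEBPD (1.75 and 1.62). IL1RN was higher with etoposide in both (2.28 and 2.69), while in control cells of DAXX_KO it was at or under 3 counts per library, as in WT.

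Genes whose log2 CPM followed a member most closely over the 24 libraries were sought among 14625 genes, as a description. For PTGES they were FBXO32, a ubiquitin ligase subunit (Pearson r 0.977), AP5S1 (0.969), SMIM14 (0.965), HERPUD2 (0.956) and the TNF family ligand CD70 (0.955). For PTGS2 they were IL1RN (0.974), TMEM167B (0.963), the chemokine CXCL8 (0.957), CEBPB (0.953) and SIRLNT (0.942). Among the members, PTGER4 ran opposite to PTGES (r = −0.93 over all 24 libraries, −0.91 over the DAXX series, −0.97 over the ATRX series), and PTGES3 ran with PTGER2 (r = 0.86). The libraries share the same 8 groups and are not independent.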

How the data were processed

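RNA of 24 U87-T libraries was sequenced by QuantSeq 3′ mRNA (75-base single-end reads). The authors aligned reads to hg19 with STAR and deposited expected counts per Ensembl gene from RSEM (1.2.3 in the submitters' processing notes, which also name DESeq2), as whole numbers; strand setting not given in the sources used here. Tag counts near the 3′ end are not scaled by length.

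Members were matched through GENCODE release 44 lifted to GRCh37 (55501 of 57736 identifiers; 98.8% of counts). The 12 libraries of a series (4 groups) were fitted with edgeR 4.0.16 in R 4.3.3 (glmQLFit and glmQLFTest, TMM, filterByExpr with a minimum count of 10 and total of 15) over 15247 and 16371 genes, with Benjamini-Hochberg adjustment over all genes and a 5% FDR. SE is the fold change divided by the root of F. Differences between series came from 1 model of all 24 libraries (16674 genes). CPM uses TMM factors over 24 libraries (0.921 to 1.08), and 3 counts equal 0.215 to 0.407 CPM. Fits were tested on simulated data: in the DAXX series 95 of 109 genes changed by 1 and 91 of 91 changed by 2 (log2) were recovered in the knockout contrast, and for the interaction 79 of 109 and 81 of 91. In the ATRX series the knockout contrast gave the same recovery, and the interaction 75 of 109 and 83 of 91. False calls were 12 and 8 in the DAXX series and 9 and 19 in the ATRX series, whose interaction also gave 1 wrong sign. Fewer genes were changed than are called in the data, and none as low as HPGD or PTGS1.

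The members and lists (110 of 111 list genes matched) were chosen with earlier results of these data known. From each pathway list the genes named were up to 3 with the largest change among those past 5% in the same direction in both series, per contrast; most-alike genes were the 5 highest correlations to PTGES and PTGS2. Some genes that this rule names are not reported here. Alternatives were size factors, library totals, filters, 1 model, only the groups compared, a replicate block, DESeq2 1.42.0, neighbour subtraction and each library left out. Precision at low counts is limited by counting error, which intervals and floors cover alone. Figures were drawn with matplotlib 3.10.9.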

Additional observations from a re-analysis of the deposited data

Results flagged for a closer look

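Each result below was set aside because an effect differed between WT and knockout or between the knockouts by a test of the difference itself. That test was edgeR, adjusted over all genes. The PTGS2 response to etoposide was larger in DAXX_KO than in WT by 2.52 (adjusted p = 0.000625; 0.0569 with all libraries in 1 model). In the ATRX series the response of PTGES3 differed by 0.39 (adjusted p = 0.0119) and that of PTGER2 by 1.59 (adjusted p = 0.00137), both falling less in ATRX_KO than in WT. With etoposide, the DAXX_KO effect minus the ATRX_KO effect was −1.86 for PTGS2 (adjusted p = 0.0013), 1.90 for PTGES (adjusted p = 0.000139), 0.61 for PTGES2 (adjusted p = 0.000166) and −0.51 for PTGES3 (adjusted p = 6.77e-05). For HPGD it was 4.76 (adjusted p = 0.000915), a fitted value whose size depends on the prior count because the ATRX_KO libraries were at or under 1 count. Each series has its own WT libraries, so a difference between knockouts includes any difference between those.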

How the results depend on the processing

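No alternative moved a count of all genes called by over 1.5 times. Requiring 10 counts in every library, which removes low members by construction, left 4 members called for etoposide in DAXX series WT, 4 in DAXX_KO, 3 for DAXX_KO against WT with etoposide, 0 for the DAXX_KO interaction, 4 for ATRX_KO against WT in control and 4 with etoposide, and 3 (control) and 2 (etoposide) for the difference between knockouts. With all libraries in 1 model 1 member was past the threshold for the DAXX_KO interaction, PTGES, whose value is a description, and with only the groups compared ATRX_KO against WT with etoposide left 4; the cause was not tested. Same-numbered libraries deviated with correlations of −0.269 to 0.0601 over 36 pairs. Differently numbered pairs were not compared, so these values cannot tell whether the numbers pair libraries. With the number as a replicate block the members called were unchanged in number except 6 in place of 7 for ATRX_KO against WT with etoposide, where PTGER2 was lost (edgeR adjusted p = 0.0670). Values that changed sign included the PTGER2 interaction in DAXX_KO (−0.0061 with library totals alone; −0.24 to 0.41 without single libraries), PTGES2 with etoposide in ATRX_KO (−0.022 without a filter; −0.048 to 0.054 without single libraries), PTGES2 in DAXX_KO against WT with etoposide (−0.061 after subtracting neighbours), PTGER2 in the same contrast (−0.23 to 0.41 without single libraries), the HPGD interaction in DAXX_KO (−0.099 to 0.59 without single libraries) and the PTGER4 difference between knockouts with etoposide (−0.31 to 0.0085 without single libraries). Subtracting neighbours also turned PTGER2 in DAXX_KO against WT with etoposide (−0.11) and its interaction (−0.10), PTGES2 with etoposide in ATRX_KO (−0.17), PTGES3 in ATRX_KO against WT with etoposide (−0.13) and the PTGER4 difference between knockouts (0.02 in control, 0.22 with etoposide), none of them past the threshold beforehand.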
